A study of Mus musculus with 2 samples.

Results

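The 10 heat shock genes described here are Hsf1, Hspa1a, Hspa1b, Dnajb1, Hsph1, Hspa8, Hsp90aa1, Hsp90ab1, Hspd1 and Hspe1. They were chosen by symbol, and each had a row in both count matrices among 32285 gene rows. Hsf1 encodes heat shock factor 1, the transcription factor that binds heat shock elements and switches on chaperone genes when proteins unfold. Hspa1a and Hspa1b encode the stress-inducible HSP70, and Hspa8 encodes its constitutive relative. Dnajb1 is a J-domain partner that delivers clients to HSP70, and Hsph1 is a large HSP70-related protein that exchanges its nucleotide. Hsp90aa1 and Hsp90ab1 encode the more inducible and the more constitutive cytosolic HSP90. Hspd1 and Hspe1 encode the chaperonin and co-chaperonin that fold proteins in mitochondria. CBL0137 is a curaxin, a DNA-intercalating compound that traps the histone chaperone FACT on chromatin, and curaxins have been reported to block heat shock factor 1. Proliferating and biosynthetically active cells are known to carry more chaperone RNA, and enzymatic digestion of tissue at body temperature is known to raise stress genes.

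Single-cell RNA was measured in 2 droplet libraries, which GEO's labels assign to liver and to spleen, from female BALB/cAnNCrl mice that bore liver metastases of the luciferase-expressing 4T1 mammary carcinoma line. All 3 groups had tumor cells seeded through the spleen followed by hemisplenectomy, and then hepatic artery infusion (HAI): the vehicle (hashtag A0301), a low dose of CBL0137 (A0305) or a high dose of CBL0137 (A0310). Cells were taken 5 days later, and 2 mice were pooled per group, so a group is 1 pooled sample per library and mice cannot be told apart. Age is not in the labels, the labels give the doses only as low and high, and the methods name A0305 among the barcodes but not among the stains. The methods describe CD11b+ bead-isolated cells, while the labels describe leukocytes, and both libraries held T and B cells.

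The values are UMIs (unique molecular identifiers, 1 per captured transcript), added up within a class and group and expressed per 1000000 UMIs (CPM). Intervals are exact, at 95%, and cover counting error only. With 1 pooled sample per group no test was possible and no p-value is given. A gene was called higher or lower when it had at least 50 UMIs over both groups, its ratio passed 1.5-fold and the interval of the ratio left out no change. The same rule over all genes gave the background share beside each count.

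The liver-labelled library gave 8435 cells with 1 hashtag and 68667953 UMIs, the spleen-labelled library 2988 cells and 28272132 UMIs, with medians of 4648 and 5462 UMIs per cell. Tissue transcripts went against the labels. Kupffer cell transcripts (Clec4f, Vsig4, Timd4, Cd5l) summed to 8.56 CPM in the liver-labelled library and 437 CPM in the spleen-labelled library, and hepatocyte transcripts to 102 and 372 CPM. Liver sinusoidal endothelial transcripts summed to 0.437 and 166 CPM, and splenic transcripts to 146 and 37.6 CPM. File names swap the tissues relative to the labels as well, so each library is named here by its label. The libraries shared 15 barcodes, 6 of them among the cells with 1 hashtag. Cluster 9 of the spleen-labelled library met the dendritic cell rule on 4 markers, but macrophage-like cells carried these too, so it is called cluster 9 here.

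Positions are those of the Ensembl identifiers in the GENCODE M21 annotation of mm10. Hsf1 (ENSMUSG00000022556) lies at chr15:76477422-76501913. Hspa1a (ENSMUSG00000091971) and Hspa1b (ENSMUSG00000090877) are neighbours on the minus strand at chr17:34969190-34972156 and chr17:34956436-34959238, and Hsp90ab1 (ENSMUSG00000023944) lies at chr17:45567775-45573271. Hsp90aa1 (ENSMUSG00000021270) is at chr12:110690605-110702728, Hsph1 (ENSMUSG00000029657) at chr5:149614287-149636376, Dnajb1 (ENSMUSG00000005483) at chr8:83608193-83612653 and Hspa8 (ENSMUSG00000015656) at chr9:40800984-40810087. Hspd1 (ENSMUSG00000025980, chr1:55077835-55088243) and Hspe1 (ENSMUSG00000073676, chr1:55088132-55091307) stand head to head, and their annotated starts overlap.

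Promoters were searched for the inverted repeats of the heat shock element, written GAANNTTC and TTCNNGAA, which read the same on both strands. The first was found in 7.95% of 27025 promoters of 300 bases in RefSeq (GRCm38.p6), the second in 8.40%, and either in 15.1%, and the motifs may overlap each other. Of the 10 genes, 6 had a promoter in that table, and 4 of these held a match. The match of Hspa1a and Hspa1b is the same and starts 104 bases before the transcript start of each gene. Only 3 of the 250 bases upstream differ between this pair, while none of the 90-base stretches in the last 500 bases of either transcript occurs in the other, the end that this kind of library reads. The sites are shown because they carry the sequence that heat shock factor 1 is known to bind, with each match in capitals and 10 neighbouring bases on either side where no further match stands. The Hspa1a site lies at chr17:34972243-34972270 and the Hspa1b site at chr17:34959325-34959352, both minus strand and outside annotated exons. The Hsph1 site at chr5:149636352-149636379 (minus strand) and the Hspe1 site at chr1:55088049-55088076 (plus strand) touch an annotated exon. Hsph1 and Hspe1 held 3 matches each. Of those of Hsph1 the 1 before the RefSeq transcript start is shown. It lies inside the gene as GENCODE places it. Those of Hspe1 overlap in the stretch shown.
Hspa1a: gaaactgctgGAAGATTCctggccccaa
Hspa1b: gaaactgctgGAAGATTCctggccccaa
Hsph1: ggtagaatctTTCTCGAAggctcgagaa
Hspe1: ccacggtccgTTCTAGAACCTTCCGGAA
The promoters of Dnajb1 and Hspd1 in that table held 0 matches. The Hspe1 stretch lies outside the Hspd1 promoter searched, but inside the annotated Hspd1 gene.

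Across cell classes, the HSP90 genes, Hspa8, Hsph1, Hspd1 and Hspe1 were low in neutrophil-like cells of both libraries and high in erythroid-like cells of the liver-labelled library and in tumor cell-like cells of the spleen-labelled library. In the liver-labelled library Hsp90ab1 was at 189 CPM in neutrophil-like cells, 1229 in T cell-like cells, 1389 in B cell-like cells and 3980 in erythroid-like cells, which also carried 6 markers of stem or early progenitor cells. Hspe1 spanned a wider range, from 8.19 CPM in neutrophil-like cells to 263 in B cell-like, 299.5 in T cell-like and 932.5 in erythroid-like cells. Hspd1, its partner in the mitochondrion, was at 14.2, 143.5, 142.9 and 1041 CPM in the same classes. The intervals of T and B cell-like cells overlapped for Hspd1. Hsph1 was at 0.922 CPM in neutrophil-like cells against 42.02 in T cell-like and 37.6 in B cell-like cells. Hsf1 itself had 2.36 CPM in neutrophil-like cells, 3.12 in granulocyte progenitor-like cells, 33.9 in T cell-like and 37.9 in B cell-like cells. In erythroid-like cells Hsf1 stood at 22.2 CPM, below both lymphocyte classes. Granulocyte progenitor-like cells of this library lay near the low end for the other members too, with 662 CPM of Hsp90ab1, 559 of Hspa8, 53.4 of Hspe1 and 3.01 of Hsph1. They also met 4 neutrophil markers, with Cebpe, Nusap1 and Rrm2 among their leading genes.

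The spleen-labelled library gave the same low end and added tumor cells at the high end. Its neutrophil-like cells had 349.5 CPM of Hsp90ab1, 22.0 of Hspe1, 1.52 of Hsph1 and 1.63 of Hsf1. The 74 tumor cell-like cells, which express Epcam and keratins, had 1833 CPM of Hsp90aa1, 3687 of Hsp90ab1 and 2825 of Hspa8. Granulocyte progenitor-like cells of that library, 160 cells with stem cell markers among their raised genes, had 1327 CPM of Hsp90aa1, 3156 of Hsp90ab1, 750 of Hspd1 and 699 of Hspe1. Their Hsf1 was at 19.2 CPM and their Hsph1 at 62.6 CPM, so the classes of this name were not alike in the libraries. Hspa8 in the spleen-labelled library was nearly as high in monocyte-like cells, at 2415 CPM, as in tumor cell-like cells. The HSP90 genes, Hsph1, Hspd1 and Hspe1 were not. Dnajb1 was also close in monocyte-like and tumor cell-like cells (32.6 and 37.4 CPM), and Hspa1a was higher in the former (19.3 and 3.02 CPM). Monocyte-like cells of the liver-labelled library, where no class was named tumor cell, had 2237 CPM of Hspa8. Dnajb1 had the narrowest range, from 16.8 to 56.5 CPM over the named classes of the liver-labelled library and from 8.42 to 57.4 CPM in the spleen-labelled library. The lowest of the latter, hepatocyte-like barcodes, had a median of 90.3% mitochondrial UMIs and little of most heat shock genes. An unnamed cluster lay outside this range: cluster 15 of the spleen-labelled library, 89 cells led by the basophil and mast cell genes Prss34, Mcpt8 and Cpa3, had 216.7 CPM of Dnajb1 (156 to 293), on 42 UMIs. Its counterpart in the liver-labelled library, also cluster 15 and led by the same genes, had 53.8 CPM (43.2 to 66.2). These clusters were singled out after their values were seen.

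**Figure D1:**
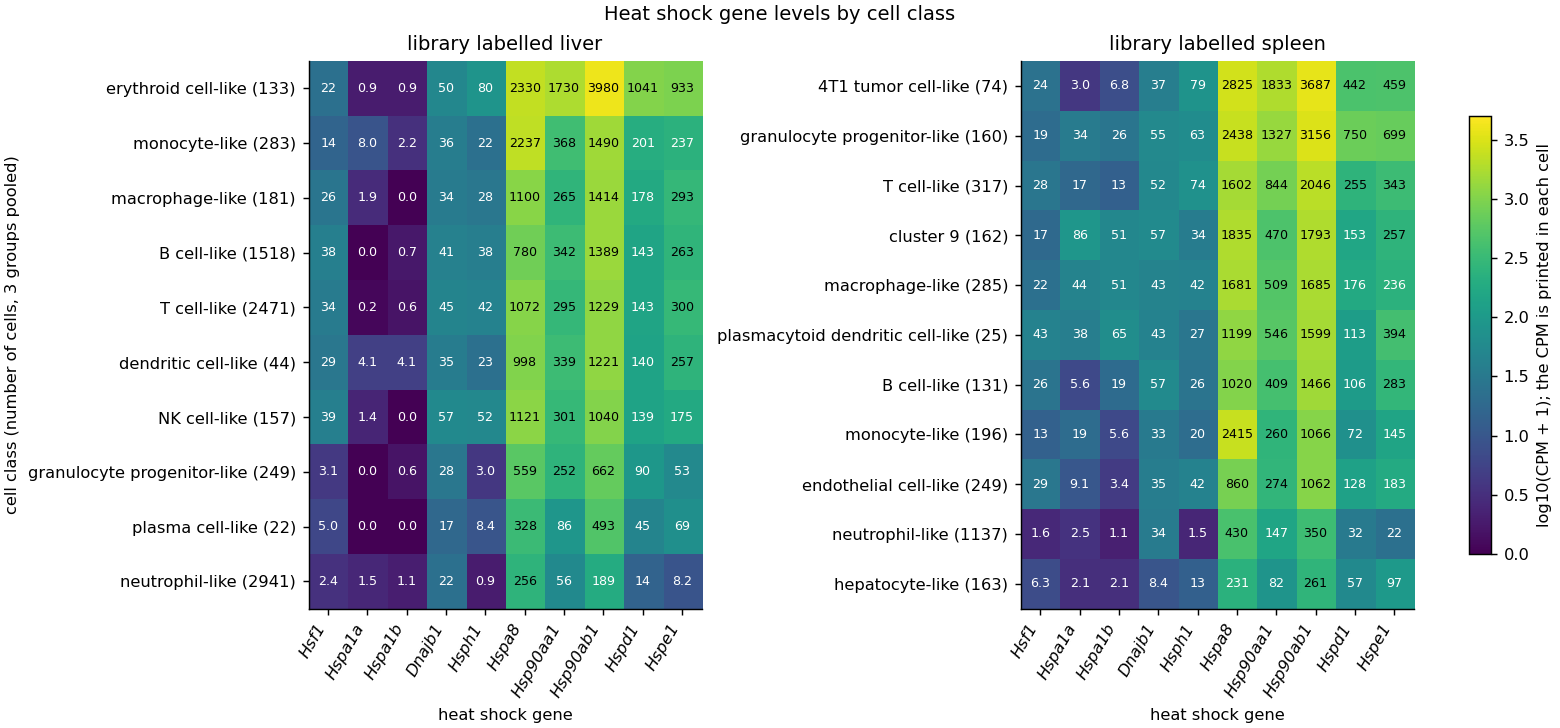
Level of each heat shock gene (columns) in each marker-named class (rows, with the number of cells) of the liver-labelled (left) and spleen-labelled (right) library, 3 groups pooled, as log10(CPM + 1) in color with the CPM printed in each square. Neutrophil-like rows are dark for Hsf1, Hsph1, Hspd1 and Hspe1, with 0.922 CPM of Hsph1 in the liver-labelled library, and the erythroid-like row on the left and the tumor cell-like row on the right are the brightest for the HSP90 genes and Hspa8, with 3980 and 3687 CPM of Hsp90ab1.

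Neutrophil-like cells were not uniform: the balance of the HSP90 pair differed widely between their clusters. Cluster 5 of the liver-labelled library, with Saa3, Il1b and Fos among its leading genes, had 179 CPM of Hsp90aa1 and 95.9 of Hsp90ab1, which is 1.86 Hsp90aa1 UMIs per Hsp90ab1 UMI (1.52 to 2.29). Cluster 4, led by the stefins and Ly6g, had 35.3 and 227 CPM, a ratio of 0.155 (0.139 to 0.173). Clusters 2 and 6 had ratios of 0.941 and 0.898, and clusters 10 and 14 had 0.139 and 0.185. The intervals of clusters 5, 2 and 6 did not meet those of clusters 4, 10 and 14. Every named class outside the neutrophils in that library lay between 0.174 and 0.435.

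The spleen-labelled library showed the same split. Its cluster 2 had 1.92 Hsp90aa1 UMIs per Hsp90ab1 UMI (1.43 to 2.59), clusters 0 and 13 had 1.03 and 1.02, and clusters 4 and 11 had 0.197 and 0.196. Cluster 7, immature cells with Camp, Cebpe and Fcnb among the leading genes, had 0.397. Dnajb1 was also highest in the clusters of high ratio, at 67.4 CPM in cluster 5 of the liver-labelled library and 81.6 CPM in cluster 2 of the spleen-labelled library, against 12.8 and 22.5 CPM in cluster 4 of each. Immediate early genes such as Fos and Egr1, which dissociation also raises, summed to 11858, 8157 and 6824 CPM in clusters 5, 2 and 6 of the liver-labelled library, against 1822 and 2318 CPM in clusters 4 and 10. In the spleen-labelled library they summed to 25424 CPM in cluster 2 and 4033 CPM in cluster 4. Depth moved along too, with median UMIs per cell of 2744 in cluster 5 and 15569 in cluster 4 of the liver-labelled library. The part of dissociation and of depth in the HSP90 balance was not tested. The high-ratio clusters were nearly empty after the high dose: clusters 5, 2 and 6 of the liver-labelled library held 358, 349 and 309 vehicle cells and 0, 3 and 12 high dose cells.

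**Figure D2:**
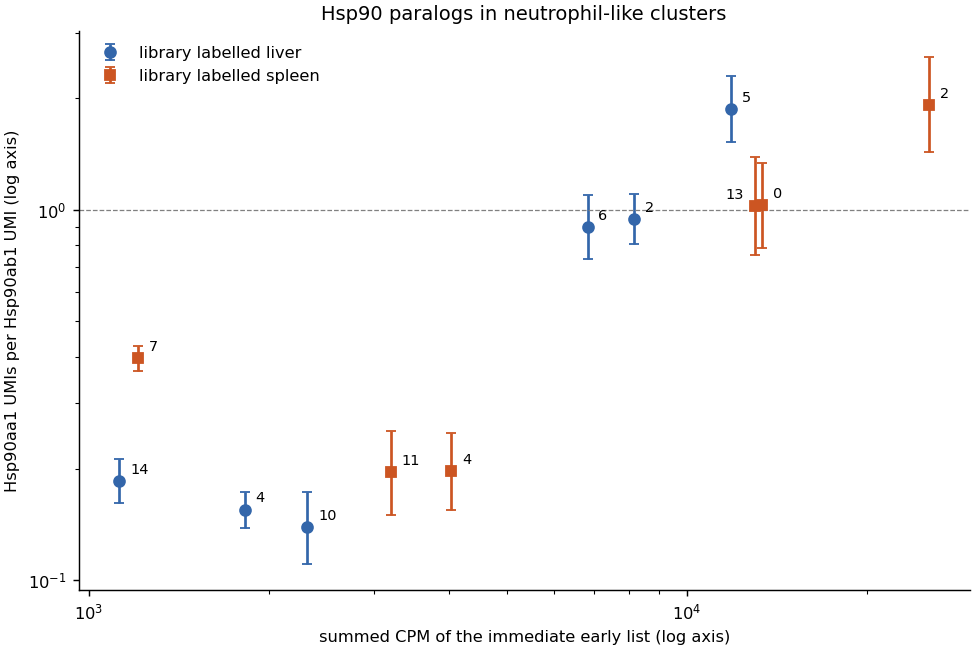
Hsp90aa1 UMIs per Hsp90ab1 UMI (log axis) against the summed CPM of immediate early genes (log axis) in each neutrophil-like cluster, 3 groups pooled, with 95% counting intervals, circles for the liver-labelled library and squares for the spleen-labelled library, cluster numbers beside the points and a dashed line at equal UMIs. Clusters with fewer immediate early UMIs lie at 0.397 or below, such as cluster 4 at 0.155 and 0.197, and those with the most lie at 1.86 and 1.92.

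The question the dose comparison addresses is whether these genes differ 5 days after HAI with CBL0137, in the 3 largest classes first. Neutrophil-like cells of the liver-labelled library had Dnajb1 at 26.4 CPM in 1437 vehicle cells, 21.2 in 1295 low dose cells and 12.5 in 209 high dose cells. Its log2 ratio at the high dose was -1.08 (-1.54 to -0.64), and it was the 1 gene called lower of 6 with enough UMIs, with 0 higher. All genes there were called lower in 26.5% and higher in 2.0% of 7468, so 1 of 6 is not above the background. Hsp90ab1 moved the other way, with 185, 162.5 and 275.5 CPM, and its log2 ratio of 0.57 (0.47 to 0.68) stayed just under the fold required. Hsp90aa1 had 62.2, 50.8 and 48.8 CPM, a log2 ratio of -0.35 (-0.58 to -0.12). Hspa8 had 250, 242 and 315 CPM (0.33, 0.24 to 0.43), and Hspd1 and Hspe1 differed by under 0.1 on the log2 scale. The median UMIs per neutrophil-like cell also differed, 4354 for the vehicle and 18272 for the high dose, as did the clusters that held the cells. At the low dose 0 of 7 genes were called, with a background of 5.45% lower and 1.17% higher.

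Within a cluster the picture of Dnajb1 changed. Of the 209 high dose cells, 156 were in cluster 4, where Dnajb1 was at 13.3 CPM in vehicle and 11.4 CPM in high dose cells (log2 ratio -0.22, -0.87 to 0.42). Hsp90aa1 in that cluster was at 32.5 and 43.7 CPM, a ratio of 0.43 (0.07 to 0.78), opposite in sign to that of the whole class. Hsp90ab1 was at 222 and 286 CPM (0.36, 0.23 to 0.50) and Hspa8 at 256 and 332 CPM (0.38, 0.25 to 0.50). Within the cluster, then, none of these 4 genes passed the fold.

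Neutrophil-like cells of the spleen-labelled library had Hspe1 at 18.8 CPM in 362 vehicle cells, 16.5 in 621 low dose cells and 35.4 in 154 high dose cells. Its log2 ratio at the high dose was 0.91 (0.40 to 1.43). Hspe1 was the 1 gene called higher of 6, and 0 were lower, against 4.68% higher and 5.48% lower over 5379 genes. The call was lost with another hashtag caller, MULTIseqDemux (0.54, -0.05 to 1.14), and at resolution 0.4, where Hspe1 had under 50 UMIs. Cluster 7 gave a close ratio for Hspe1 (33.0 to 62.6 CPM, 0.92, 0.35 to 1.52). Hsp90aa1 had 154, 118 and 186.5 CPM (0.27, 0.08 to 0.47) and Hsp90ab1 358, 279 and 459 CPM (0.36, 0.24 to 0.48). At the low dose Hspd1 was the 1 gene called, lower, with 35.7 CPM after the vehicle and 21.6 after the low dose (-0.72, -1.15 to -0.30), where 7.98% of genes were lower and 4.12% higher. That call was lost with the dominant hashtag (-0.49, -0.90 to -0.07), at resolution 0.4 (-0.20, -0.97 to 0.59) and with the mean over cells (-0.47). The groups differed in their clusters here too. The immature cluster 7 held 67 vehicle, 59 low dose and 45 high dose cells, and cluster 13 held 2, 120 and 2. At the low dose 7 of 13 proliferation genes were lower and 0 higher. The part of the clusters in the class ratios was not tested. Neutrophil-like cells of the high dose group in this library also carried more hepatocyte RNA, with 5 of 8 measured hepatocyte transcripts called higher, such as Apoa2 at 4.71 and 83.3 CPM. Whether this RNA has a part in the Hspe1 difference was not tested.

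T cell-like cells gave different pictures in the libraries, a difference that was not tested. The classes were not alike. The liver-labelled library had a separate class of 157 NK cell-like cells, and its T cell-like clusters had leading genes such as Lef1, Cd8b1 and Foxp3. No cluster of the spleen-labelled library was named NK cell. In the liver-labelled library none of the genes passed the fold. Hsp90aa1 had 269, 329 and 283 CPM in 592 vehicle, 862 low dose and 1017 high dose cells. Hsp90ab1 had 1144, 1313 and 1211 CPM, Hsph1 38.2, 49.5 and 38.4 CPM, and Hspd1 138, 148 and 141 CPM. None of 8 genes was called at the high dose (background 1.21% lower, 2.14% higher) or at the low dose (1.20% lower, 1.91% higher). Dnajb1 had the largest ratio, 0.46 (0.13 to 0.80) at the high and 0.51 (0.16 to 0.86) at the low dose, and the low dose ratios of Hsp90aa1 (0.29, 0.16 to 0.42), Hsp90ab1 (0.20, 0.14 to 0.26) and Hsph1 (0.37, 0.04 to 0.72) left out no change as well.

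In the spleen-labelled library, with 44 vehicle, 104 low dose and 169 high dose T cell-like cells, Hsp90aa1 stood at 283, 566 and 1066 CPM. Its log2 ratio to the vehicle was 1.00 (0.62 to 1.41) at the low and 1.92 (1.55 to 2.30) at the high dose. Hsp90ab1 had 1329, 1900 and 2232 CPM (0.75, 0.58 to 0.92 at the high dose), and Hspd1 had 106, 157 and 326 CPM (1.62, 1.03 to 2.28). Hsph1, at 30.9, 43.9 and 95.6 CPM, rested on 7, 28 and 131 UMIs (1.63, 0.55 to 2.97). All 4 were called higher at the high dose, of 7 genes with enough UMIs, and 0 lower, where 8.98% of 4322 genes were higher and 4.30% lower. Hspa8 had 1276, 1472 and 1717 CPM (0.43, 0.25 to 0.61), and Hsf1 had 26.5, 28.2 and 27.7 CPM. At the low dose Hsp90aa1 was the 1 of 5 called higher (background 5.86% higher, 2.77% lower). With clusters formed at resolution 1.6 the high dose ratio of Hsp90aa1 was 0.90 (0.48 to 1.34), and the calls of Hsp90ab1 (0.21, 0.02 to 0.40) and Hspd1 (0.49, -0.15 to 1.18) were lost.

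Both T cell-like clusters of that library took part. In cluster 5, with Gzma, Gzmb and Cd8a, Hsp90aa1 was at 307 CPM in 24 vehicle and 1232 CPM in 118 high dose cells (2.01, 1.6 to 2.44). That cluster met 9 T cell markers and also 4 NK cell markers, so NK cells may be among its cells. In cluster 14, with Il7r and Lef1, Hsp90aa1 was at 216 CPM in 20 and 485 CPM in 51 cells (1.17, 0.35 to 2.11). Other gene lists moved in the same cells at the high dose: 12 of 13 proliferation genes and 9 of 14 endoplasmic reticulum chaperones were higher, and 9 of 11 immediate early genes were lower, where 8.98% of all genes were higher and 4.30% lower. Late neutrophil genes, which mark another cell type, were higher in 2 of 3 at the high dose (Il1b at 30.9 and 99.3 CPM, Ccl6 at 39.7 and 107) and in 3 of 3 at the low dose. Their part in the result was not tested. Among T cell-like cells with no UMI of a proliferation gene, Hsp90aa1 was at 192 CPM in 17 vehicle, 326 CPM in 38 low dose and 517 CPM in 32 high dose cells (1.43, 0.47 to 2.55 at the high dose), and Hsp90ab1 at 942, 1133 and 1480 CPM. The share of cells in cycle was not otherwise matched. Hsph1 (1.04, -1.16 to 4.25) and Hspd1 (1.58, -0.14 to 3.96) rested on few UMIs in these cells, and their intervals included no change. In the liver-labelled library the same cells gave 266, 311 and 276 CPM of Hsp90aa1, while Hsph1 was lower at the high dose, at 46.5 and 24.7 CPM (-0.91, -1.45 to -0.38). In cells with a proliferation UMI Hsph1 was higher there, at 31.3 and 49.0 CPM (0.65, 0.18 to 1.13).

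**Figure D3:**
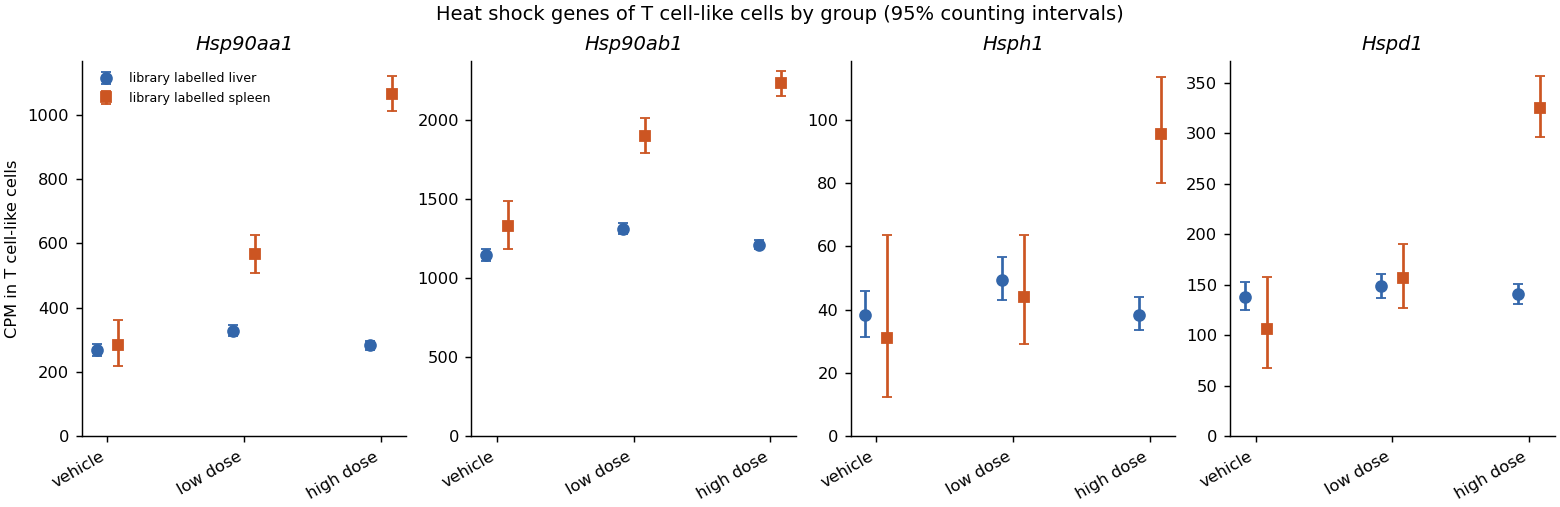
Hsp90aa1, Hsp90ab1, Hsph1 and Hspd1 in T cell-like cells by group (CPM, linear axes from 0, 95% counting intervals), circles for the liver-labelled library and squares for the spleen-labelled library. The circles of Hsp90aa1 lie at 269, 329 and 283 CPM, and its squares at 283, 566 and 1066 CPM.

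B cell-like cells of the liver-labelled library differed in Hsf1, with 26.2 CPM in 528 vehicle, 44.6 in 548 low dose and 45.1 in 442 high dose cells. The log2 ratio was 0.77 (0.26 to 1.29) at the low and 0.78 (0.27 to 1.31) at the high dose. Hsf1 was the 1 of 8 genes called higher at each dose and 0 were lower, where 1.48% of 6765 genes were higher and 4.49% lower at the high dose, and 3.05% higher and 3.27% lower at the low dose. Within cluster 1, which held 418 of the vehicle cells, Hsf1 was at 26.0, 34.3 and 40.3 CPM, ratios of 0.40 (-0.23 to 1.03) at the low dose, which was not called, and 0.63 (0.07 to 1.21) at the high dose, which was. The groups differed in their clusters, since cluster 18 held 147 low dose cells of 151 and cluster 20 held 46 vehicle cells of 47. Of the other members, Hspa1a and Hspa1b had too few UMIs to be called in these cells, and none of the 7 with enough UMIs was called higher: Hsp90ab1 had 1354, 1424 and 1393 CPM, Dnajb1 38.1, 41.4 and 43.9 CPM, and Hsph1 39.1, 46.2 and 26.1 CPM. In the spleen-labelled library Hsp90aa1 was at 278, 555 and 395 CPM in 31, 34 and 66 B cell-like cells. It was called at the low dose only (0.99, 0.36 to 1.66), 1 of 4 higher and 0 lower against 8.88% higher and 6.18% lower. At the high dose 0 of 4 were called (3.77% higher, 7.65% lower).

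**Figure D4:**
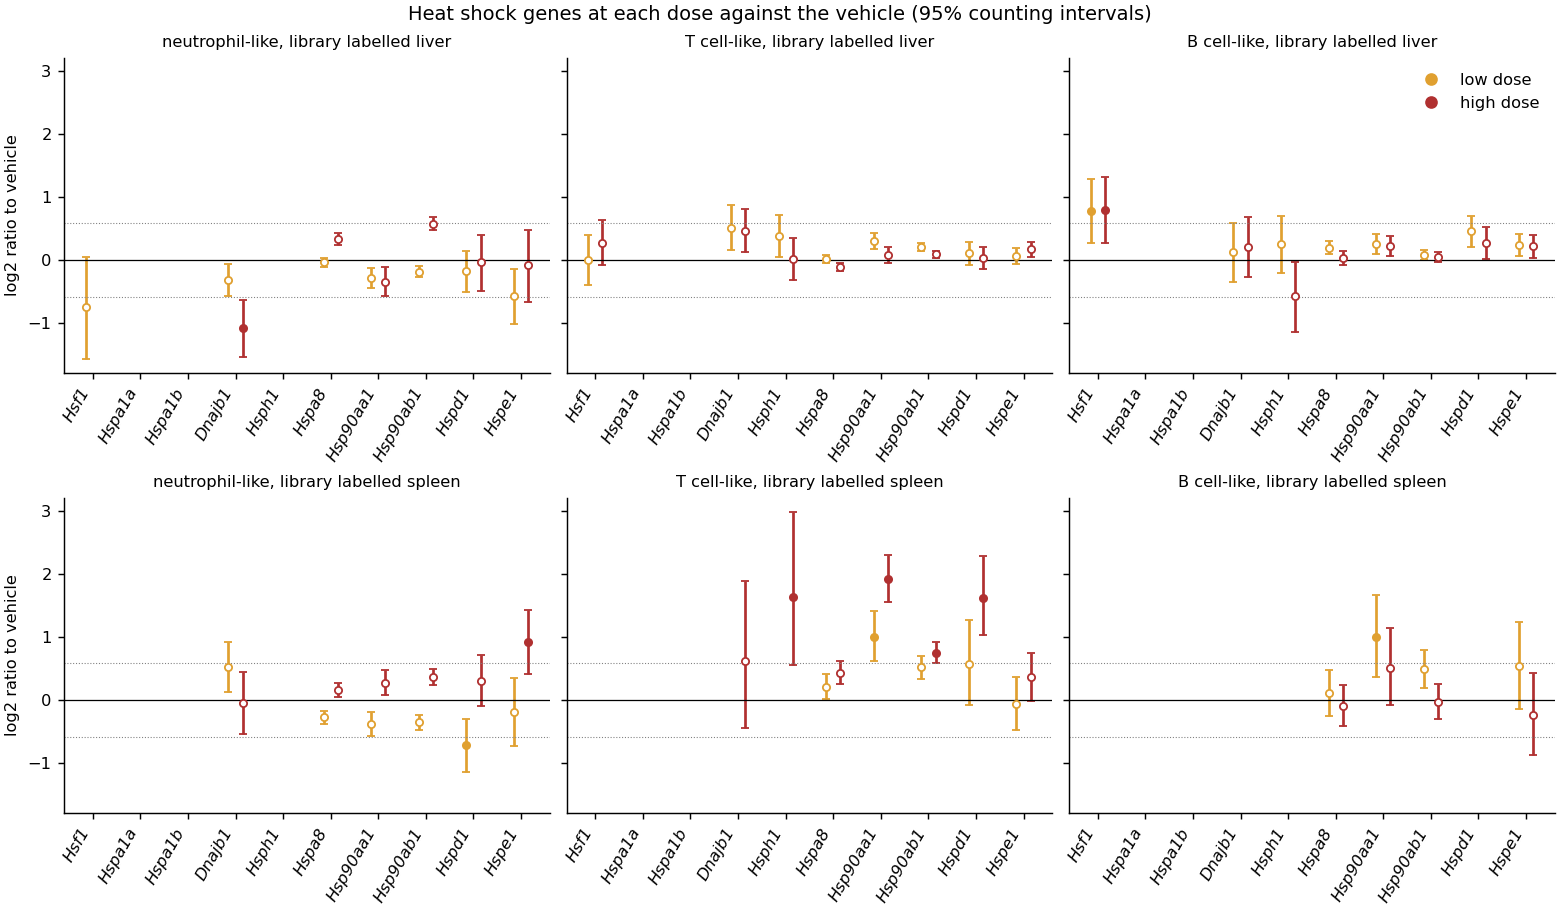
Log2 ratio to the vehicle of each heat shock gene with at least 50 UMIs in neutrophil-like, T cell-like and B cell-like cells of the liver-labelled (top) and spleen-labelled (bottom) library, low dose in orange and high dose in red, with 95% counting intervals. Filled points passed 1.5-fold (dotted lines) with an interval that leaves out 0. In the T cell-like panel of the spleen-labelled library Hsp90aa1 reached 1.92, and in the neutrophil-like panel of the liver-labelled library Dnajb1 lies at -1.08.

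The inducible HSP70 pair, Hspa1a and Hspa1b, was near 0 in the liver-labelled library. Together they reached 0.710 CPM in T cell-like, 0.709 in B cell-like and 2.62 in neutrophil-like cells, and 10.3 CPM in monocyte-like cells at the top. Of the 60 UMIs in monocyte-like cells, 45 were in 98 low dose cells, 33 of them in 5 cells, and 11 in 159 vehicle cells. In the spleen-labelled library the pair was also low in neutrophil-like cells, at 3.58 CPM, but stood at 94.8 CPM in macrophage-like cells, 137 in cluster 9 and 60.4 in granulocyte progenitor-like cells. Macrophage-like cells had 58.2 CPM in 55 vehicle, 53.0 in 109 low dose and 133 in 121 high dose cells. The methods describe collagenase digestion of the liver and mechanical disruption of the spleen. Since tissue transcripts went against the labels, the label does not tell which library came from digested tissue. The part of tissue handling in the difference between the libraries was not tested.

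At the high dose the log2 ratio in these macrophage-like cells was 1.05 (0.38 to 1.79) for Hspa1a and 1.32 (0.68 to 2.03) for Hspa1b, and Hsph1 went along, with 23.0, 34.4 and 53.7 CPM (1.22, 0.49 to 2.05). These were the 3 of 10 genes called higher there, against 6.67% of all genes, while Hsp90aa1 (538 and 550 CPM), Hsp90ab1 (1759 and 1752 CPM) and Hspa8 (1748 and 1780 CPM) were level. Cluster 9 gave 17.0, 93.8 and 263 CPM of the pair in 61, 66 and 35 cells. Its Hspa1a and Hsp90aa1 were called higher at the high dose, 2 of 6 genes, with 11.6% of all genes. Granulocyte progenitor-like cells had 26.4, 84.1 and 69.3 CPM in 66, 80 and 14 cells. At the low dose Hspa1a (1.59), Hspa1b (1.80), Hsph1 (1.03) and Hsp90aa1 (0.72) were called higher, 4 of 10 genes, with 4.31% of all genes. The classes and doses with a background share here were picked after their calls were seen, and the share of genes called lower is not given.

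How many cells carried these UMIs differed between groups. The 303 Hspa1a and Hspa1b UMIs of high dose macrophage-like cells came from 29 of 121 cells, 106 of them from 1 cell and 250 (82.5%) from 5. The 43 vehicle UMIs came from 4 of 55 cells, 24 of them from 1. Low dose UMIs were spread over 29 of 109 cells, with 13 in the highest. The macrophage-like class joins 2 clusters. Cluster 3, led by Arg1 and Ccl8, held 49 vehicle, 84 low dose and 82 high dose cells. Cluster 17, with Clec4f and Vsig4, held 6, 25 and 39. Cluster 3 had 19 of the 43 vehicle UMIs and 286 of the 303 high dose UMIs, while cluster 17 had 17 high dose UMIs. The part of this mix in the class ratios was not tested. In cluster 9 the 5 highest cells held 71 of 87 high dose UMIs and 28 of 29 low dose UMIs. Low dose granulocyte progenitor-like cells had a wider spread, with 186 UMIs in 39 of 80 cells and 48.4% of them in the 5 highest, against 10 of 66 vehicle cells with a UMI, while 1 high dose cell held 25 of 26. The counting intervals treat UMIs as independent and are too narrow where few cells hold the sum. Neutrophil-like cells of the high dose group had a UMI of the pair in 3 of 154 cells. Over the 3 groups together the class median was 5222 UMIs per cell, against 13909 in macrophage-like cells. Depth within the high dose group alone was not compared.

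Cells with at least 5 UMIs of the pair were therefore described across groups. The spleen-labelled library held 53 of them (8 vehicle, 21 low dose and 24 high dose), and 49 carried both genes, while the liver-labelled library held 4. They were deeper, with a median of 17481 UMIs against 5039 in cells with 0 UMIs of the pair, which a limit in UMIs favors. Neutrophil-like cells, low in Hsph1, were 2 of the 53 cells but 1119 of the 2761 cells with 0 UMIs of the pair. Over all classes together, other members were higher per UMI in the cells with at least 5 UMIs. Hsph1 was at 109 against 26.9 CPM, Dnajb1 at 82.2 against 38.4 CPM and Hsp90aa1 at 1448 against 524 CPM. Within macrophage-like cells alone, where medians were 15000.5 and 12803 UMIs, 14 such cells had 192 CPM of Hsph1, 112 of Dnajb1 and 973 of Hsp90aa1. The 223 cells without the pair had 31.3, 39.8 and 470 CPM. Hsf1 was at 28.1 and 22.0 CPM. Cluster 9 went the other way for Hsph1, at 16.6 CPM (2 UMIs) in 9 such cells and 34.8 CPM in 142 cells without the pair. Its Dnajb1 was at 74.9 and 52.3 CPM and its Hsp90aa1 at 791 and 382 CPM. Granulocyte progenitor-like cells, 16 and 109 of them, had Hsph1 at 105 and 37.0 CPM, Dnajb1 at 60.3 and 50.1 CPM and Hsp90aa1 at 1834 and 1061 CPM. Immediate early genes summed to 2937 and 3686 CPM in the macrophage-like cells, and to 5334 and 4071 CPM in those of cluster 9.

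**Figure D5:**
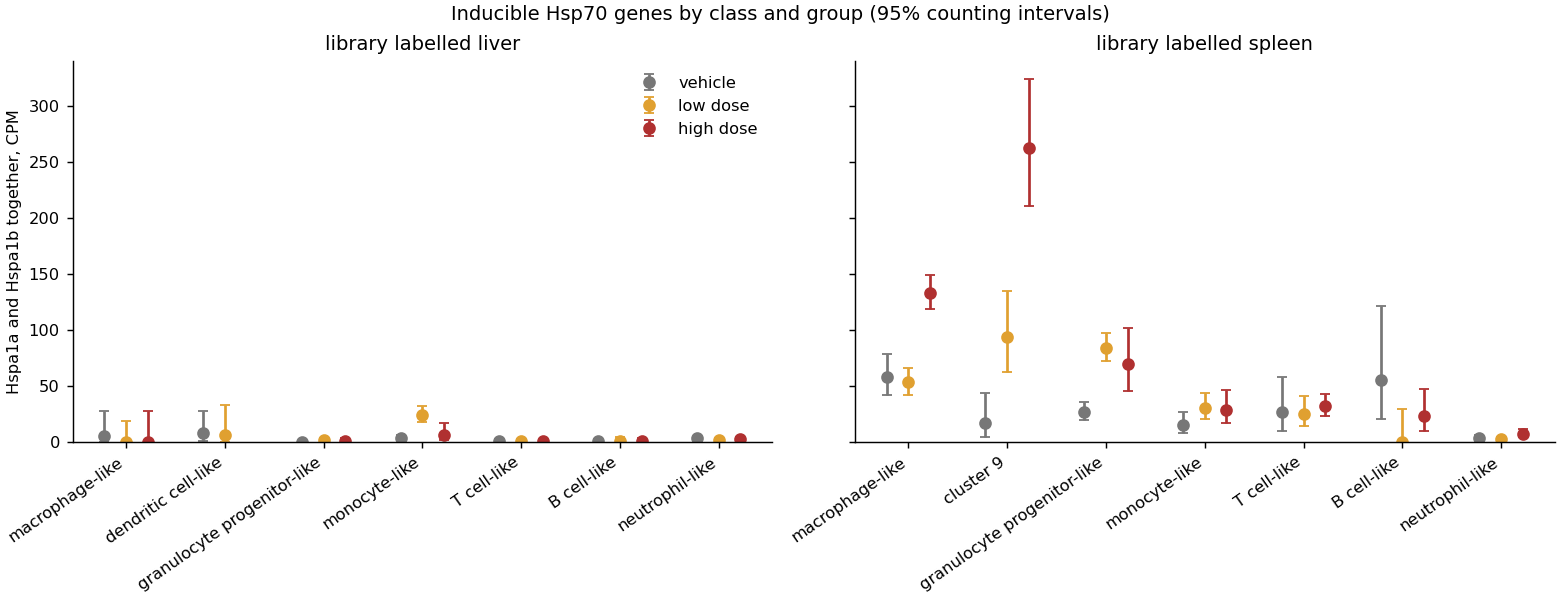
Hspa1a and Hspa1b together (CPM, linear axis from 0, 95% counting intervals) by class and group, liver-labelled library on the left and spleen-labelled on the right. In the liver-labelled library most points lie near 0. Its monocyte-like cells had 10.3 CPM over all groups together, which is not a plotted point, and 45 of their 60 UMIs were in low dose cells. In the spleen-labelled library the high dose points of cluster 9 and macrophage-like cells lie at 263 and 133 CPM.

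Smaller classes gave further values. The classes, and the direction in which the background share is given, were picked after the calls were seen. The share in the opposite direction is not given, and dose ratios of other small classes, such as erythroid-like and NK cell-like cells, are left out. The counts below are therefore examples and not a survey of the smaller classes. Tumor cell-like cells had 1156, 1636 and 1911 CPM of Hsp90aa1 in 11 vehicle, 16 low dose and 47 high dose cells, and the high dose gave a log2 ratio of 0.73 (0.49 to 0.97). It was the 1 of 8 genes called higher there, against 6.48% of all genes. Granulocyte progenitor-like cells of the liver-labelled library had Hspe1 at 41.4, 51.8 and 80.6 CPM (0.96, 0.63 to 1.30), Hsp90aa1 at 213, 243 and 344 CPM (0.69, 0.53 to 0.84) and Hspd1 at 76.8, 84.5 and 124 CPM (0.69, 0.43 to 0.95). These 3 of 6 were called higher, against 4.81% of all genes. Monocyte-like cells of that library had lower Hspd1, with 233 CPM in 159 vehicle, 177 in 98 low dose and 102 in 26 high dose cells (-1.19, -1.58 to -0.82). Hspd1 and Dnajb1 (37.2, 40.3 and 20.8 CPM) were the 2 of 8 called lower, against 7.10% of all genes. Macrophage-like cells of that library, a shallow class with a median of 1455 UMIs, had Hsp90aa1 at 174, 312 and 332 CPM, Hsp90ab1 at 1197, 1329 and 1870 CPM and Hspa8 at 889, 926 and 1681 CPM. These 3 of 5 were called higher at the high dose, against 8.20% of all genes.

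The libraries were compared over vehicle cells. In neutrophil-like cells 5 of 6 genes were called higher in the spleen-labelled library, where 15.5% of 7596 genes were higher and 16.7% lower. Hsp90aa1 had 62.2 CPM in the liver-labelled library and 154 CPM in the spleen-labelled library (1.31, 1.14 to 1.48), Hsp90ab1 185 and 358 CPM (0.95, 0.84 to 1.05) and Hspd1 15.0 and 35.7 CPM (1.25, 0.89 to 1.61). Dnajb1 had 26.4 and 28.6 CPM (0.11, -0.25 to 0.46). Clusters differed in level: the 67 vehicle cells of cluster 7 of the spleen-labelled library had 572 CPM of Hsp90ab1. Vehicle cells of cluster 4 had 236 CPM (201 to 275) in the spleen-labelled library and 222 CPM (208 to 237) in the liver-labelled library. Cluster 14 of the liver-labelled library, also with Camp and Cebpe among its leading genes, was not set beside cluster 7. The part of the clusters in the class difference was not tested. In T cell-like and B cell-like cells 0 of 8 genes were called, where 12.1% and 3.21% of genes were higher and 7.49% and 3.00% lower. Hsp90ab1 was at 1354 and 1355 CPM in the B cell-like cells. Tissue, tissue handling and library cannot be told apart in this comparison.

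At the high dose other chaperones of neutrophil-like cells were counted by list. These are ratios of the whole class, whose clusters differed between the groups, and the lists were not counted within a cluster. In the liver-labelled library 3 of 21 cytosolic chaperones and cochaperones were lower and 0 higher, with a median log2 ratio of -0.31 beside -0.33 over all 7468 genes. Over all genes of this class 26.5% were lower and 2.0% higher, so this count is below the background. These were Hspa4l, an HSP110 relative (10.7 to 6.26 CPM), Stub1, a chaperone-dependent ubiquitin ligase (35.4 to 23.3 CPM), and, named after its values were seen, St13, an HSP70 cochaperone (24.1 to 16.0 CPM). Of 17 endoplasmic reticulum chaperone and unfolded protein response genes, 3 were lower and 2 higher (median 0.01). The lectin chaperone Calr (41.1 to 66.4 CPM) and the resident HSP90 gene Hsp90b1 (56.8 to 90.4 CPM) were higher, and the stress factor Ddit3 (23.5 to 9.01 CPM) and Dnajb9 (21.3 to 12.02 CPM) lower. Mitochondrial chaperones and proteases were lower in 2 of 6, the protease subunits Clpp (7.81 to 0.751 CPM, where 0.751 is 3 UMIs) and Clpx (13.2 to 7.01 CPM), with a median of -0.72, and the cytosolic chaperonin CCT in 0 of 8 (median -0.16).

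The spleen-labelled library had 1 of 20 cytosolic chaperones higher, the HSP90 cochaperone Fkbp4 (16.1 to 24.6 CPM), with a median of 0.01 beside 0.02 over all 5379 genes, of which 4.68% were higher and 5.48% lower. Hsp90b1 (131 to 199 CPM) was higher and Ddit3 (16.1 to 5.61 CPM) lower in this library too, the 2 called of 16 (median 0.26). The mitochondrial protease Lonp1 was higher (7.40 to 13.8 CPM), 1 of 6 (median 0.22), and the CCT subunits gave 0 of 8 (median 0.17). Immediate early genes stood apart, with 13 of 14 lower (median -1.50) in the liver-labelled library and 14 of 14 lower (median -1.38) in the spleen-labelled library. Clusters 5, 2 and 6 of the liver-labelled library, where these genes were high, held 358, 349 and 309 vehicle cells but 0, 3 and 12 high dose cells. The part of the clusters in the list counts was not tested. Fos was at 512 and 66.1 CPM in the former, where Atf3 was at 5.82 CPM in vehicle cells and had 0 UMIs in high dose cells. In the latter Fosb was at 20.9 and 2.59 CPM and Atf3 at 39.4 and 8.20 CPM. Late neutrophil genes were lower in 4 of 6 and 2 of 6, among them Il1b and Cxcl2, early granule genes in 2 of 8 (Elane and Camp) and 0 of 8, and of the proliferation genes 2 of 8 (Ccnb1 and Ccnb2) and 5 of 13 (Mcm2 and Mcm6 among them) were higher and 1 (Pcna) and 0 lower.

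Likeness was measured as Pearson's r of log2(CPM + 10) over 57 units, each a class, group and library with at least 100000 UMIs, among 5633 genes. Units share libraries and depth, so r is a description. Hsp90ab1 was most like the chaperonin subunits Cct3 (0.97) and Cct5 (0.96) and the nucleolar Npm1 (0.96). Hspe1 was most like Lsm7 (0.95), Npm1 (0.95) and Fbl (0.94), Hspd1 like Timm8a1 (0.94), C1qbp (0.94) and Nhp2 (0.94), and Hsp90aa1 like Hdgf (0.95), Prmt1 (0.92) and Hsp90ab1 (0.92). Hspa8 was most like Eif4a1, Atp5b and Slc25a3 (0.93 each), and Hsph1 like Otud4, Pdcd11 and Syncrip (0.87 each). Hsf1 was most like Srcap (0.89), Zfp644 (0.88) and Eif4a2 (0.87). Its r with the other members ran from 0.083 with Hspa1a and 0.17 with Hspa1b to 0.70 with Hspe1 and 0.74 with Hsph1. Dnajb1 was loosely tied to Ube2k (0.74), Wbp11 (0.73) and Ewsr1 (0.73). Among the 5633 genes the inducible pair was looser still, with Cdkn1a (0.70), Ccl9 (0.70) and Ms4a6d (0.67) for Hspa1a. For Hspa1b they were Acly (0.59) and Atp13a1 (0.51). Hspa1a and Hspa1b had too few UMIs to be among those genes, and their r with each other was higher, at 0.77. Over the 3 groups together, each was at 8.04 CPM or less in every named class of the liver-labelled library, below the 10 CPM added. The part of this floor in the low r of Hspa1a and Hspa1b with other genes was not tested. With the summed proliferation genes r was 0.67 for Hsp90aa1, 0.62 for Hspd1 and -0.061 for Hsf1.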

How the data were processed

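The data of 2 droplet libraries were deposited by the authors as raw UMI counts per gene and cell barcode, with hashtag counts. The matrix header names Cell Ranger 5.0.0 and the submitters' processing notes Cell Ranger 6.0.0 and Seurat, with build mm10, while the methods name a later version. Counts are not normalized. HTODemux (Seurat 5.3.0) assigned hashtags (R 4.3.3, sctransform 0.4.2, quantile 0.99), and cells with 1 hashtag were kept, with no other filter. The liver-labelled library had 616 barcodes with more than 1 hashtag and 540 with none, the spleen-labelled library 215 and 1627. Clusters (SCTransform, 30 principal components, resolution 0.8) were formed without the members, other chaperones or immediate early genes among the variable genes. A cluster was named from at least 3 markers with a log2 fold over 1.0 in at least 20% of its cells, unless its 10 leading genes went against the name. These naming limits were completed after the data were seen. Scrublet (scanpy 1.11.5) called 248 doublets (2.59%) in the liver-labelled library and 1 (0.0207%) in the spleen-labelled library, where it has not worked, so doublets of cells with the same hashtag remain.

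UMIs were summed by class and group and scaled to 1000000 (numpy 2.4.6, scipy 1.17.1, pandas 2.3.3). Exact Poisson and conditional binomial intervals at 95% were computed, classes needed at least 10 and clusters at least 20 cells in each group, and a count of 0 is limited by 3 counts. The ratio step was tested on simulated data. Spread between cells and between mice is not in the intervals. Named genes were all 10 members, up to 2 called genes with the largest rise and the largest fall of each list at the high dose in neutrophil-like cells, and the 3 genes most like each member among those with at least 500 UMIs in each library, of which 1 is not reported here. The members and lists were chosen with earlier results of these data known. The 15 shared barcodes were kept. Of 32285 gene identifiers 32158 were held by GENCODE M21.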

Additional observations from a re-analysis of the deposited data

Results flagged for a closer look

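Between the libraries, 8 ratios to the vehicle had opposite signs with intervals that left out no change in both. The difference itself was not tested. The share of all genes with such opposite ratios was not counted, so the 8 are not a result particular to these genes. Classes of the same name also differed in their leading genes. Macrophage-like cells were led by C1qa and Vcam1 in the liver-labelled library, and the larger macrophage-like cluster of the spleen-labelled library by Arg1 and Ccl8. The log2 ratio of Hsp90aa1 in monocyte-like cells was -0.51 at the high dose in the liver-labelled library and 0.71 in the spleen-labelled library, and at the low dose it was -0.18 and 0.70. In macrophage-like cells at the low dose Hsp90aa1 was at 0.84 in the liver-labelled library and -0.32 in the spleen-labelled library. At the high dose Hsp90aa1 in neutrophil-like cells was at -0.35 and 0.27, and at the low dose Dnajb1 was at -0.32 and 0.52. Hsp90ab1 in monocyte-like cells at the high dose was at -0.24 and 0.22. Hspa8 at the high dose was at -0.11 and 0.43 in T cell-like cells and at 0.32 and -0.20 in granulocyte progenitor-like cells.

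Barcodes without a hashtag call enter no comparison. In the liver-labelled library these 540 barcodes had log2 ratios to the vehicle cells of 1.90 for Hsp90aa1, 0.82 for Hsp90ab1, 1.68 for Hsph1, 0.80 for Dnajb1, 0.61 for Hspa8, 1.93 for Hspd1 and 1.91 for Hspe1. In the spleen-labelled library the 1627 barcodes had 1.07 for Hspa1b, 0.65 for Hsp90aa1 and 1.00 for Hsph1. Only members with at least 50 UMIs there, a rise past 1.5-fold and an interval above no change were flagged. The other members of the spleen-labelled library had 0.54 (Hsf1), 0.44 (Hspe1), 0.31 (Hspa1a), 0.29 (Hsp90ab1), 0.23 (Hspd1), -0.015 (Hspa8) and -0.14 (Dnajb1). Those of the liver-labelled library had -0.21 (Hsf1), -0.12 (Hspa1b, 2 UMIs) and -1.77 (Hspa1a, 1 UMI). The share of all genes that were higher was not counted. Their groups are unknown, and their cell classes were not matched to those of the vehicle cells.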

How the results depend on the processing

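Counts of called members changed under the alternatives as follows. The share of all genes called and the number of members with enough UMIs under each alternative are not given. These counts therefore describe only how the calls of the members moved. In neutrophil-like cells of the liver-labelled library, the 1 lower at the high dose became 3 with the dominant hashtag, 2 at resolution 0.4 and 2 with the mean over cells. The 0 higher became 1 with MULTIseqDemux, at resolutions 0.4 and 1.6, with the mean over cells and without the 20 most abundant genes. The 0 lower at the low dose became 1 with the dominant hashtag, without Scrublet doublets and with the mean over cells. In B cell-like cells of that library MULTIseqDemux gave 1 lower at the high dose in place of 0 and 2 higher at the low dose in place of 1. In neutrophil-like cells of the spleen-labelled library, the 1 higher at the high dose became 0 with MULTIseqDemux, 0 at resolution 0.4 and 2 with the mean over cells, the 0 lower became 1 at resolution 0.4, and the 1 lower at the low dose became 0 with the dominant hashtag, at resolution 0.4 and with the mean over cells. In T cell-like cells of that library the 4 higher at the high dose became 2 at resolution 1.6, and the 1 higher at the low dose became 2 with the mean over cells. Among T cells without a proliferation UMI, an alternative added after seeing the data, the liver-labelled library gave 1 lower and 1 higher at the high dose and 1 higher at the low dose, in place of 0, and the spleen-labelled library 2 higher at the high dose in place of 4 and 0 at the low dose in place of 1, with fewer cells. The cause of the changes was not tested. No called ratio changed sign. Ratios of single genes moved past their interval in 20 of 77 cases with the mean over cells and in 0 of 77 with cells of at least 200 genes and under 10% mitochondrial UMIs. Leaving out cluster 2 of the spleen-labelled library, also added after seeing the data, kept 12 of 12 counts within 1.5 times. That cluster is neutrophil-like, so the counts of T cell-like and B cell-like cells among the 12 could not change. No paired analysis was possible because each group is 1 pooled sample per library, and for the same reason no replicate could be left out.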
